A study of Mus musculus with 21 samples.

Results

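The chaperonin CCT, also called TRiC, was followed through the gametes and preimplantation embryos of the mouse by the genes that encode its subunits. The members were Tcp1, Cct2, Cct3, Cct4, Cct5, Cct6a, Cct6b, Cct7 and Cct8, chosen by name as the known subunit genes. Each gene took every transcript of the study's merged annotation that overlapped its exons on the same strand in GENCODE vM21 on mm10, so that 9 of 10920 genes with a merged transcript and 21 of 22612 merged transcripts belonged to the complex. Oocytes were collected 20 h after hCG from superovulated C57BL/6J females of 3–5 weeks. Embryos came from such females mated with males given as DBA/2J in the sample titles and as DBA/2N in the protocol, were grown in KSOM medium and were taken at 24–26 h (1-cell), 46–48 h (2-cell), 54–58 h (4-cell), 68–70 h (8-cell) and 94–96 h (blastocyst) after hCG. Sperm came from the epididymis of males with the same pair of strain names. No group was treated or carried an engineered allele, and all females had received the same hormones. Each of the 7 stages had 2 short-read libraries, made from separate batches of pooled gametes or embryos by amplification of full-length cDNA, and 1 long-read pool in which both batches were mixed.

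CCT is a cytosolic folding machine built of a pair of stacked rings, in which each ring holds 1 copy of every subunit at a fixed place. It encloses newly made proteins and folds them at the cost of ATP, and actin and tubulin are its best known substrates. Prefoldin hands unfolded chains to the ring, phosducin-like proteins modulate it, and tubulin cofactors take over tubulin that has left it. Tcp1, Cct2, Cct3, Cct4, Cct5, Cct7 and Cct8 encode the alpha, beta, gamma, delta, epsilon, eta and theta subunits. Cct6a encodes the common zeta subunit, and Cct6b the zeta subunit known mainly from testis, which takes the same place in the ring. The 8 genes other than Cct6b are called the 8 subunits here. On mm10, Tcp1 lies at chr17:12915701-12925067, Cct3 at chr3:88297116-88321767, Cct4 at chr11:22990519-23003780 and Cct7 at chr6:85451514-85468475 on the plus strand, as does Cct6a at chr5:129786998-129846371. On the minus strand, Cct2 lies at chr10:117051001-117063814, Cct5 at chr15:31590800-31601804, Cct6b at chr11:82719250-82764321 and Cct8 at chr16:87483326-87495873. GENCODE vM21 lists all as protein-coding except Cct6a, which it lists as a processed transcript.

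Levels are the deposited TPM values, the length-scaled abundance of a transcript relative to all transcripts of a library, summed over the transcripts of a gene. TPM allows levels to be compared between genes, but it keeps no sequencing depth. The study lists the total sequences of each short-read library. These differed between replicates, as at the 1-cell and 2-cell stages, and were not used here. Since TPM is relative, a lower level can mean less of that RNA per cell or more RNA of other genes, and a higher level the reverse. Where a pool holds more than 1 cell type, it can also mean a change in the number of cells of a type. These cannot be told apart in bulk samples. Marker lists followed the labels for sperm, oocytes and blastocysts, whereas the 7 measured 2-cell markers summed to 657.9 TPM in one 2-cell library and 29.7 TPM in the other. All 4 leukocyte markers (Ptprc, Cd74, Lyz2 and Laptm5) were detected in sperm, at a summed 16010 and 77336 TPM against 4.64 to 107.5 TPM in the other libraries. No merged transcript was assigned to any of the 7 cumulus and granulosa markers or the 5 markers of testicular somatic cells and epididymis. Replicate libraries were least alike at the 2-cell stage, where the median SD between them over all genes was 0.98 on the log2(TPM + 1) scale, and most alike at the 4-cell stage, at 0.18.

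Before the first cleavages the RNAs of the subunits stood at very unequal TPM. Protein of the subunits was not measured. Cct8 stood at 116.3 and 470.6 TPM in the 2 oocyte libraries and at 288.3 and 313.0 TPM in 1-cell embryos. Cct6a stood at 0.307 and 0.567 TPM in oocytes and at 0.306 and 0.652 TPM in 1-cell embryos. In both stages Cct8 lay above every other subunit, and Cct6a below every other one of the 8, without overlap of the libraries.

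Between these ends lay the other 6 subunits. In oocytes Cct7 stood at 18.3 and 52.7 TPM, Tcp1 at 6.48 and 21.9 TPM, and Cct4 at 5.19 and 18.3 TPM. Cct3 was measured at 14.4 and 4.59 TPM, Cct5 at 4.49 and 7.01 TPM, and Cct2 at 7.69 and 2.07 TPM. From Cct7 to Cct2, each gene overlapped its neighbour in the order of means, so that their order within oocytes is not resolved. Cct8 made up 67.2% and 81.5% of the summed TPM of the 8 subunits in oocytes and exceeded Cct6a 379-fold and 830-fold. Among all genes tested, the oocyte mean of Cct8 lay at the 95.6th percentile and that of Cct6a at the 25.5th. Cct6b was listed at 0 in both oocyte libraries and reached 0.054 TPM in 1 of the 2 libraries of 1-cell embryos.

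**Figure D1:**
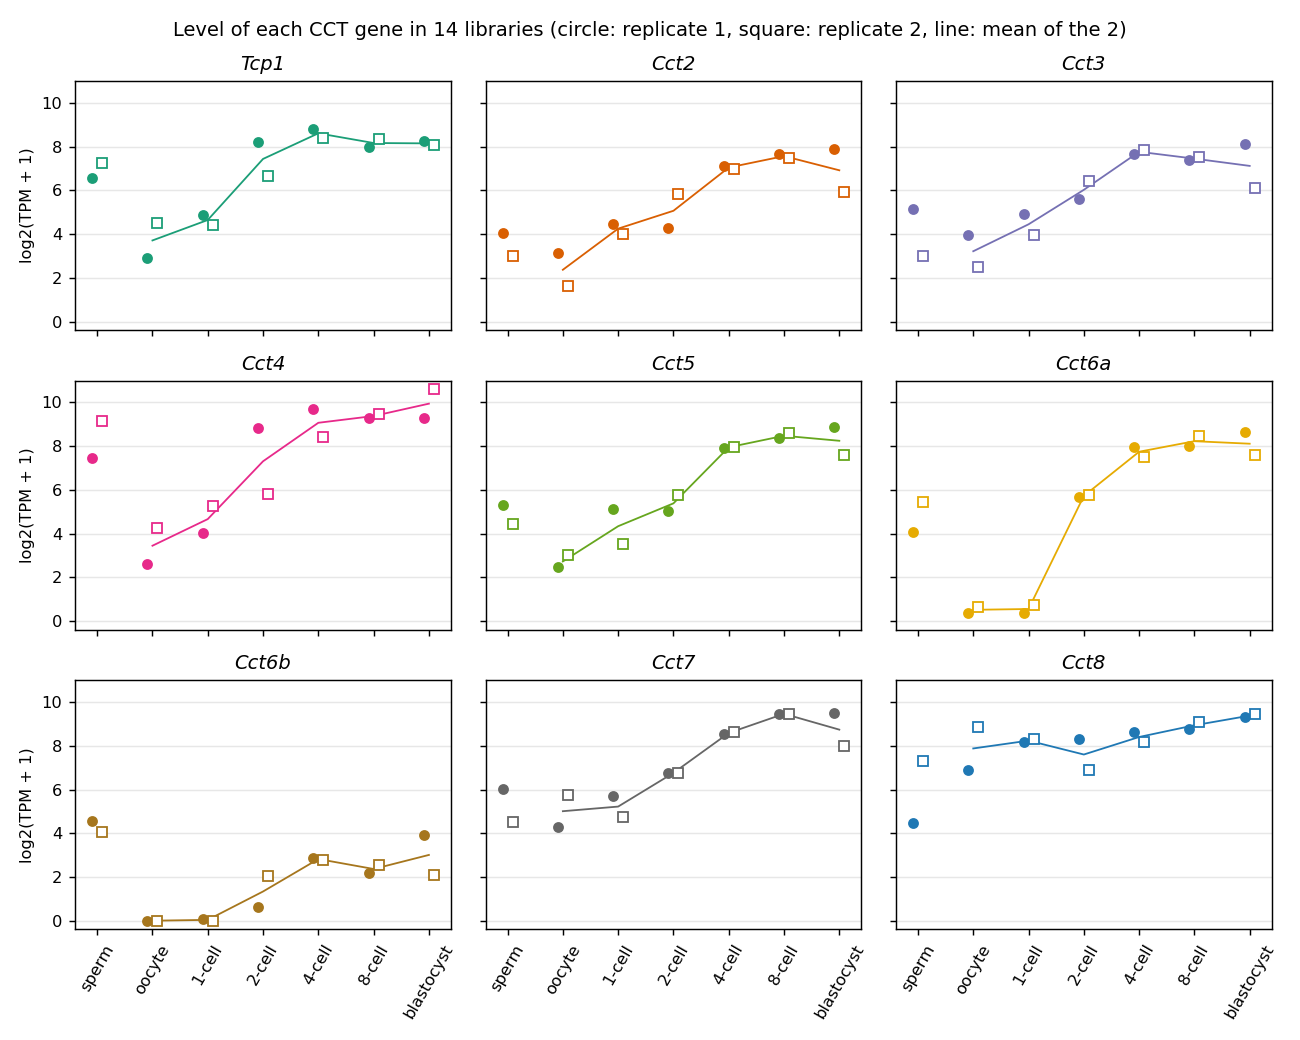
Level of each of the 9 CCT genes in each short-read library, as log2(TPM + 1), with 1 panel per gene, the 7 stages along the horizontal axis, points for the 2 libraries and a line through their means. Cct8 is high from the oocyte on, Cct6a lies near 0 until the 1-cell stage, and Cct6b is highest in sperm.

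The spread among the 8 subunits was narrower from the 4-cell stage on. Expressed as the SD of log2(TPM + 1) over the 8 subunits within a library, it was 1.85 and 2.60 in oocytes, 2.15 and 2.09 in 1-cell embryos, and 1.69 and 0.49 in 2-cell embryos. It was 0.80 and 0.54 in 4-cell embryos, 0.75 and 0.78 in 8-cell embryos, and 0.60 and 1.56 in blastocysts. The 4 libraries of oocytes and 1-cell embryos lay above all 8 libraries of the later stages. Without Cct6a the SD was still 1.53 and 2.43 in oocytes and 1.35 and 1.60 in 1-cell embryos, and it then overlapped the wider of the blastocyst libraries (1.68) and of the 2-cell libraries (1.78). In sperm the SD over all 8 subunits was 1.22 and 2.21. The highest subunit exceeded the lowest 942-fold and 480-fold in 1-cell embryos, 24.0-fold and 2.25-fold in 2-cell embryos and 6.18-fold and 3.18-fold in 4-cell embryos. The summed TPM of the 8 subunits was 173 and 578 in oocytes, 468 and 438 in 1-cell embryos, 1314 and 628 in 2-cell embryos, 2901 and 2145 in 4-cell embryos, 2957 and 3392 in 8-cell embryos, and 3657 and 3294 in blastocysts. These spreads are descriptions over genes and carry no test.

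**Figure D2:**
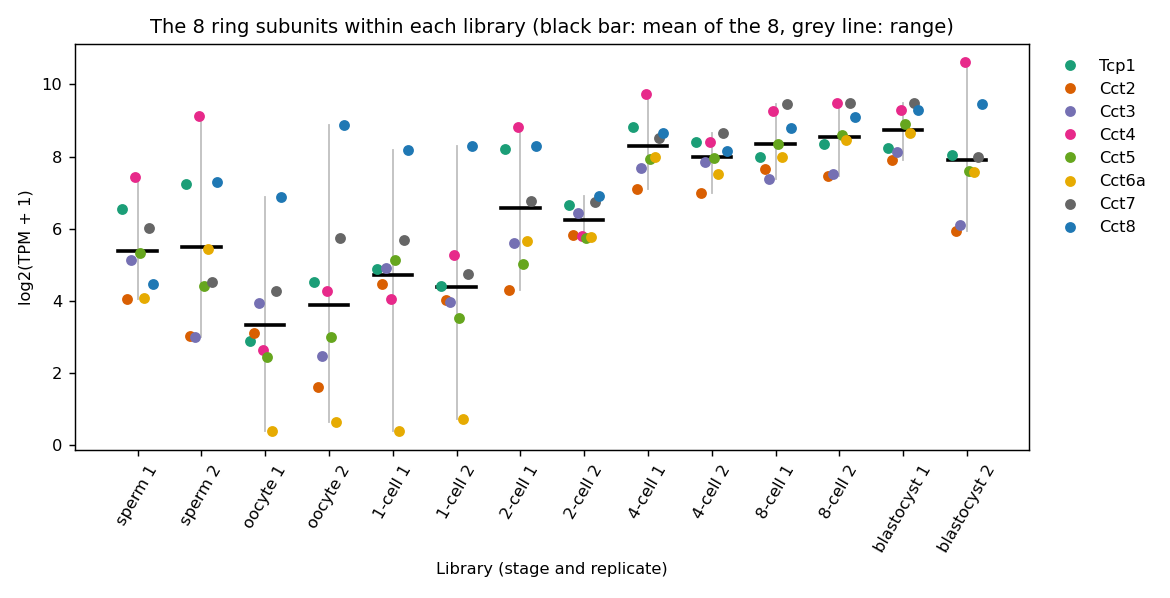
Level of each of the 8 subunits in each short-read library, as log2(TPM + 1), with points coloured by gene. Black bars mark the mean of the 8 subunits and grey lines their range. The SD over the 8 subunits is not drawn. It was between 1.85 and 2.60 in the oocyte and 1-cell libraries and between 0.54 and 0.80 in the 4-cell and 8-cell libraries.

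Once cleavage was under way the order of the means changed. Cct4 had the highest mean in 2-cell embryos, 4-cell embryos and blastocysts, and Cct7 in 8-cell embryos. In each of these stages the gene with the highest mean overlapped the next one. Cct8 was highest in 2-cell replicate 2 (118.6 TPM, with Cct4 at 55.0 TPM). Cct7 was highest in 4-cell replicate 2 (399.6 TPM) and in blastocyst replicate 1 (714.3 TPM). In 8-cell embryos, where the libraries were close, Cct7 (697.7 and 709.9 TPM) overlapped Cct4 (617.7 and 717.2 TPM), and both lay above Cct8 (440.3 and 543.3 TPM). Cct5, Cct6a and Tcp1 followed and overlapped one another in that order, and Cct2 (202.0 and 176.0 TPM) overlapped Cct3 (165.3 and 183.0 TPM) below them. Cct6b stood at 3.49 and 4.92 TPM, below all 8 subunits. Of the Cct7 total in 8-cell embryos, 334.4 and 212.4 TPM came from TCONS_00016863, an isoform that lacks 1028 of 1632 coding bases. The isoform of Cct7 with the whole coding sequence stood at 363.1 and 495.9 TPM there, below both values of Cct4 and overlapping Cct8. In blastocysts all 8 subunits overlapped their neighbours in the order.

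Changes between stages were tested with limma on log2(TPM + 1) over all genes, with Benjamini-Hochberg adjustment over 10001 genes for the contrasts among oocytes and embryos. A change is given as the log2 difference ± SE, and genes near 0 TPM change by less on this scale than as a ratio. The p-values rest on the spread between the 2 batches of a stage, pooled over all stages in the fit. A gene therefore has the same SE in every contrast of oocytes and embryos, whatever the spread of the 2 stages compared. From oocytes to 1-cell embryos no member passed an adjusted p of 0.05, against 0.380% of all genes. Unadjusted, 2 of 9 members had a p under 0.05, against 920 of 10001 genes. Both 1-cell libraries lay above both oocyte libraries for Cct2, Cct3 and Cct5, 3 of 9 members against 28.6% of all genes, with differences of 1.88 ± 0.83, 1.23 ± 0.81 and 1.61 ± 0.75, and the lowest adjusted p of the 3 was 0.499 (Cct2). With TPM from each stage's own long-read transcripts, Cct3 and Cct5 had none in the 1-cell pool and so counted as 0 there. Their differences (−4.96 and −2.86, limma, adjusted p = 0.00156 and 0.00281) follow from this absence in 1 pool and do not test a change in level. Cct2 was higher in that setting (2.58, limma, adjusted p = 0.0380). Its transcripts were partial in both pools, covering at most 50.3% of the coding bases in oocytes and 42.7% in 1-cell embryos. The Cct2 difference thus does not test a change in level either. Of all 8914 genes tested in that setting, 1188 were called higher and 1225 lower.

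From 1-cell to 2-cell embryos Cct6a and Tcp1 rose. Cct6a went from 0.306 and 0.652 TPM to 49.8 and 54.0 TPM, so that both 2-cell libraries lay far above both 1-cell libraries. The difference was 5.17 ± 0.66 (limma, adjusted p = 0.000163, n = 2 and 2), and it stayed past the threshold in each of the 20 settings that gave a value, where the highest adjusted p was 0.0282. Tcp1 went from 28.5 and 20.2 TPM to 295.0 and 100.5 TPM, a difference of 2.79 ± 0.77 (limma, adjusted p = 0.0133). This call was lost when each stage had a weight for its own spread (adjusted p = 0.0944), when the 4 libraries of these 2 stages were fitted alone (0.102), without 2-cell replicate 1 (0.0766) and without 1-cell replicate 2 (0.0827). The 2-cell libraries differed from each other more than those of any other stage.

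The 2 members called were 2 of 9, and 26.1% of all genes rose in the same contrast. The median difference over all genes was 0.72, against which Cct6a stood 4.45 higher and Tcp1 2.07 higher. Of all genes 2607 were called higher and 620 lower, a split that turned to 1589 higher and 1760 lower after quantile normalization. Cct4 was the member nearest to the threshold among the rest, with 15.5 and 38.0 TPM in 1-cell and 448.8 and 55.0 TPM in 2-cell embryos (2.64 ± 1.00, limma, adjusted p = 0.0568). Its 2-cell libraries differed 8.17-fold. Cct3, Cct7 and Cct6b also had 2-cell libraries above both 1-cell libraries, with adjusted p from 0.143 to 0.152 in limma, and 6 of 9 members did so in all, against 42.7% of all genes. Cct6b, under 4 TPM in all 4 libraries, passed with a pseudocount of 0.1 (3.54, adjusted p = 0.0150). Cct8 was the member with a negative difference (−0.64 ± 0.82), and its libraries overlapped.

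From 2-cell to 4-cell embryos all 9 members had a positive difference, but none was called, against 3.40% of all genes. The differences ran from 0.80 (Cct8) to 2.56 (Cct5), with a median of 1.76 against 0.04 over all genes tested. In 7 of 9 members, against 30.7% of all genes, both 4-cell libraries lay above both 2-cell libraries, the exceptions being Cct4 and Cct8. Cct5 was at 31.5 and 52.8 TPM in 2-cell and at 244.2 and 248.6 TPM in 4-cell embryos (2.56 ± 0.75, limma, adjusted p = 0.0682). Cct6a was at 49.8 and 54.0 TPM, then at 251.0 and 182.2 TPM (2.02 ± 0.66, adjusted p = 0.0892). Unadjusted, 6 of the 9 members had a p under 0.05, against 2452 of 10001 genes. After quantile normalization Cct5, Cct6a and Cct6b passed, and so did Cct4 without 2-cell replicate 1, or Cct5 and Cct6b without 2-cell replicate 2.

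Later steps were smaller. From 4-cell to 8-cell embryos no member was called, against 1.67% of all genes. No member had an unadjusted p under 0.05, against 1567 of 10001 genes. In 5 members (Cct2, Cct5, Cct6a, Cct7 and Cct8) both 8-cell libraries lay above both 4-cell libraries, against 22.9% of all genes, and in 3 (Tcp1, Cct3 and Cct6b) both lay below, against 47.3%. Cct7 had the largest difference (0.88 ± 0.77, limma, adjusted p = 0.665), from 367.3 and 399.6 TPM to 697.7 and 709.9 TPM, with no overlap between the stages. The differences of the other 4 higher members were 0.48 to 0.54, and those of the 3 lower ones −0.31 to −0.46. From 8-cell embryos to blastocysts no member was called either, against 3.00% of all genes. Again none had an unadjusted p under 0.05, against 1443 of 10001 genes. Of the 9 members, 1 did not overlap between these stages, against 19.7% of all genes that were higher without overlap. This was Cct8 (440.3 and 543.3 TPM, then 631.6 and 699.6 TPM).

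**Figure D3:**
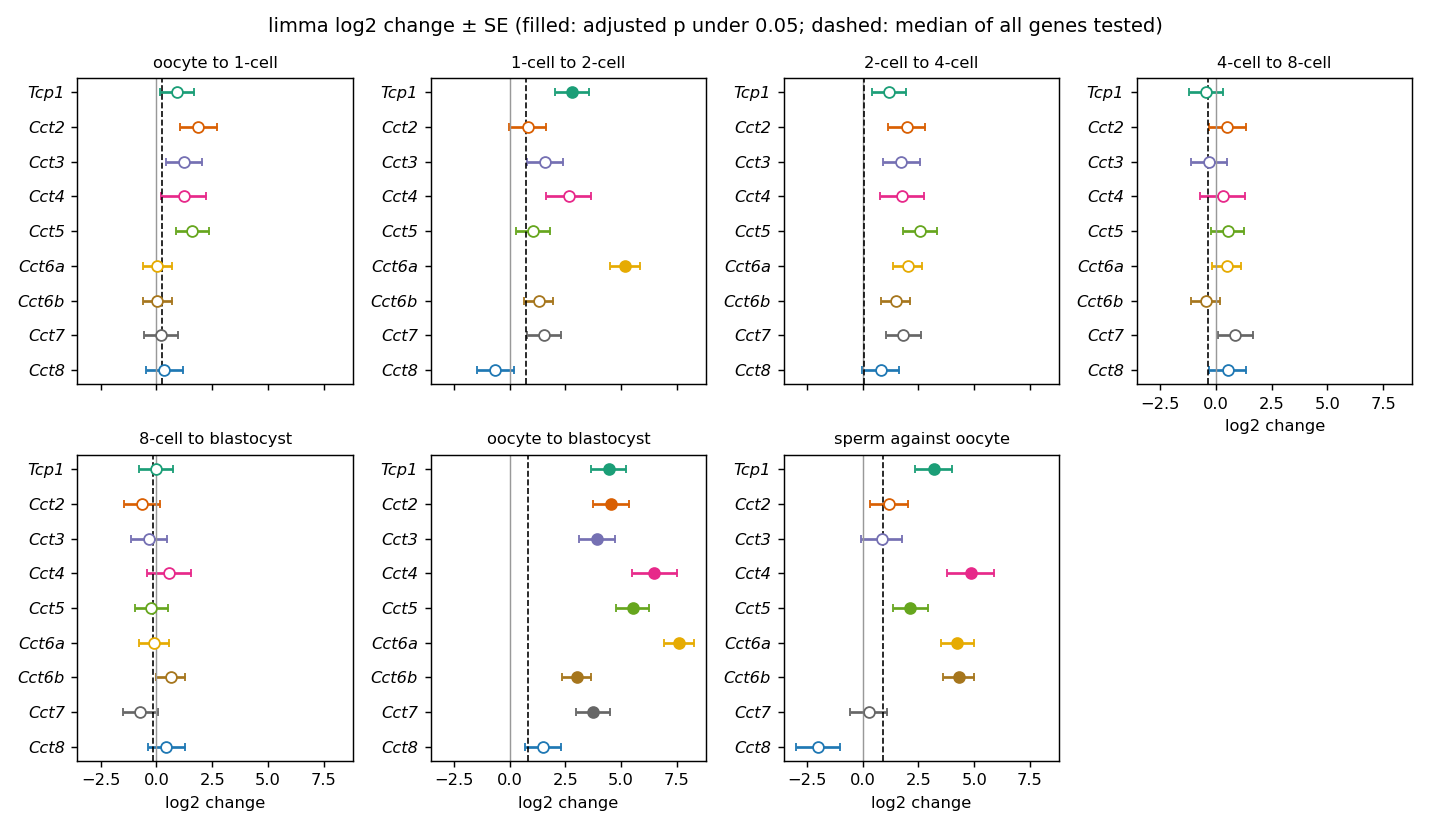
Difference in log2(TPM + 1) of each CCT gene for each contrast between stages, with bars of 1 SE from limma and filled symbols for an adjusted p under 0.05. Cct6a has the largest difference from 1-cell to 2-cell embryos (5.17) and from oocytes to blastocysts (7.60).

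Over the whole interval from oocyte to blastocyst 8 of 9 members rose, against 35.4% of all genes. The median difference of the 9 members was 4.44, and that of all genes tested was 0.82. Cct6a rose by 7.60 ± 0.66 to 398.7 and 191.0 TPM (limma, adjusted p = 3.2e-06), and its blastocyst mean lay at the 94.7th percentile of all genes tested. Cct4 rose by 6.50 ± 1.00 to 621.0 and 1563 TPM (adjusted p = 0.000125), the highest level of any member in any stage. Cct5 rose by 5.52 ± 0.75, Cct2 by 4.55 ± 0.83, Tcp1 by 4.44 ± 0.77, Cct3 by 3.90 ± 0.81 and Cct7 by 3.73 ± 0.77, with adjusted p from 4.8e-05 to 0.00112 in limma. The call of Cct3 was lost when TPM came from each stage's own long-read transcripts (1.86, adjusted p = 0.0750). Cct6b, listed at 0 in oocytes, was at 14.1 and 3.27 TPM in blastocysts (adjusted p = 0.00163, limma). Cct8 was the member that did not pass. Both its blastocyst libraries lay above both oocyte libraries, and the difference was 1.50 ± 0.82 (limma, adjusted p = 0.137), or 2.51 with an adjusted p of 0.0339 without oocyte replicate 2. The all-gene calls of 3544 higher and 1799 lower became 2659 and 2638 after quantile normalization, under which the same 8 members were called.

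The isoforms of the members were kept apart as the long reads had defined them. Tcp1 had 3, Cct2 2, Cct3 3, Cct4 1, Cct5 1, Cct6a 2, Cct6b 2, Cct7 3 and Cct8 4. In Tcp1, Cct8 and Cct3, 1 isoform each lacked a single internal coding exon and changed between stages. These exons are printed because the isoforms without them were among those called between neighbouring stages. The Cct7 isoform TCONS_00016864 also lacks 1 internal exon and is not printed, since it stayed at or under 1.64 TPM in every library. The exon is in capitals with 15 flanking bases of the annotated messenger RNA in lower case, read from GENCODE vM21 (mm10).

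Tcp1, chr17:12917798-12917883, plus strand, 86 bases, absent from TCONS_00008438: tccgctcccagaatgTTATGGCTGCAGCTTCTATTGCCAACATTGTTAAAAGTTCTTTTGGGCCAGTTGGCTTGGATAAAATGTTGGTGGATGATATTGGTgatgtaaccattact
Cct8, chr16:87494337-87494427, minus strand, 91 bases, absent from TCONS_00008335: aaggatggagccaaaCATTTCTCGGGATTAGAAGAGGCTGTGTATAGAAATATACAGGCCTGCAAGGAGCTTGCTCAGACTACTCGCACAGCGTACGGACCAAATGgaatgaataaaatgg
Cct3, chr3:88300800-88300850, plus strand, 51 bases, absent from TCONS_00012759: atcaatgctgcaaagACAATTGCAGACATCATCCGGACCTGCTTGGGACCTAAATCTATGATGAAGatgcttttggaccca

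The Tcp1 and Cct8 exons are not a multiple of 3 bases long, leaving remainders of 2 and 1, whereas the Cct3 exon is.

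Tcp1 changed its isoform make-up at the 2-cell stage. Its main isoform, TCONS_00008437, has 12 exons and the whole coding sequence of 1668 bases. TCONS_00008438 lacks the 86-base exon, and TCONS_00008439 covers the start of the gene with 3 exons and lacks 1389 of the coding bases. All 3 matched annotated transcripts intron by intron. The 12-exon isoform made up 90.0% and 90.2% of Tcp1 TPM in oocytes and 96.2% and 94.9% in 1-cell embryos. In 2-cell embryos it made up 40.5% and 35.2%, lower than in any other library. It stood at 72.6% and 62.9% in 4-cell embryos, 83.2% and 85.7% in 8-cell embryos and 88.2% and 84.9% in blastocysts.

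The isoform without the 86-base exon went from 1.08 and 0.648 TPM in 1-cell to 134.1 and 22.9 TPM in 2-cell embryos, a rise of 4.94 ± 0.79 (limma over transcripts, adjusted p = 0.00121). The 3-exon isoform went from 0 and 0.385 TPM to 41.4 and 42.1 TPM, a rise of 5.18 ± 0.68 (adjusted p = 0.000668). In TPM the 2-cell libraries thus agreed on the 3-exon isoform and differed on the exon-skipped one. As shares of Tcp1 TPM they differed on both. The 3-exon isoform made up 14.02% in replicate 1 and 41.94% in replicate 2. The exon-skipped isoform made up 45.47% and 22.82%. The 12-exon isoform was at 27.5 and 19.1 TPM and then at 119.5 and 35.4 TPM. In 4-cell embryos the 3-exon isoform stood at 41.5 TPM in both libraries and the exon-skipped one at 82.6 and 82.9 TPM, while the 12-exon isoform was at 328.8 and 210.6 TPM.

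Shares were tested on a scale of log2 odds. The share of the 12-exon Tcp1 isoform fell by 4.25 ± 0.49 from 1-cell to 2-cell embryos (limma over shares, adjusted p = 0.00173). The shares of the exon-skipped and the 3-exon isoforms rose by 2.72 ± 0.70 (adjusted p = 0.0292) and 2.87 ± 0.73 (adjusted p = 0.0273). With such weights by stage, the fall of the 12-exon isoform remained past the threshold (adjusted p = 0.0114), and the other 2 shares did not (0.0889 and 0.0698). It also passed in each fit that left out 1 library, but not in a fit of the 4 libraries alone (adjusted p = 0.0821).

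**Figure D4:**
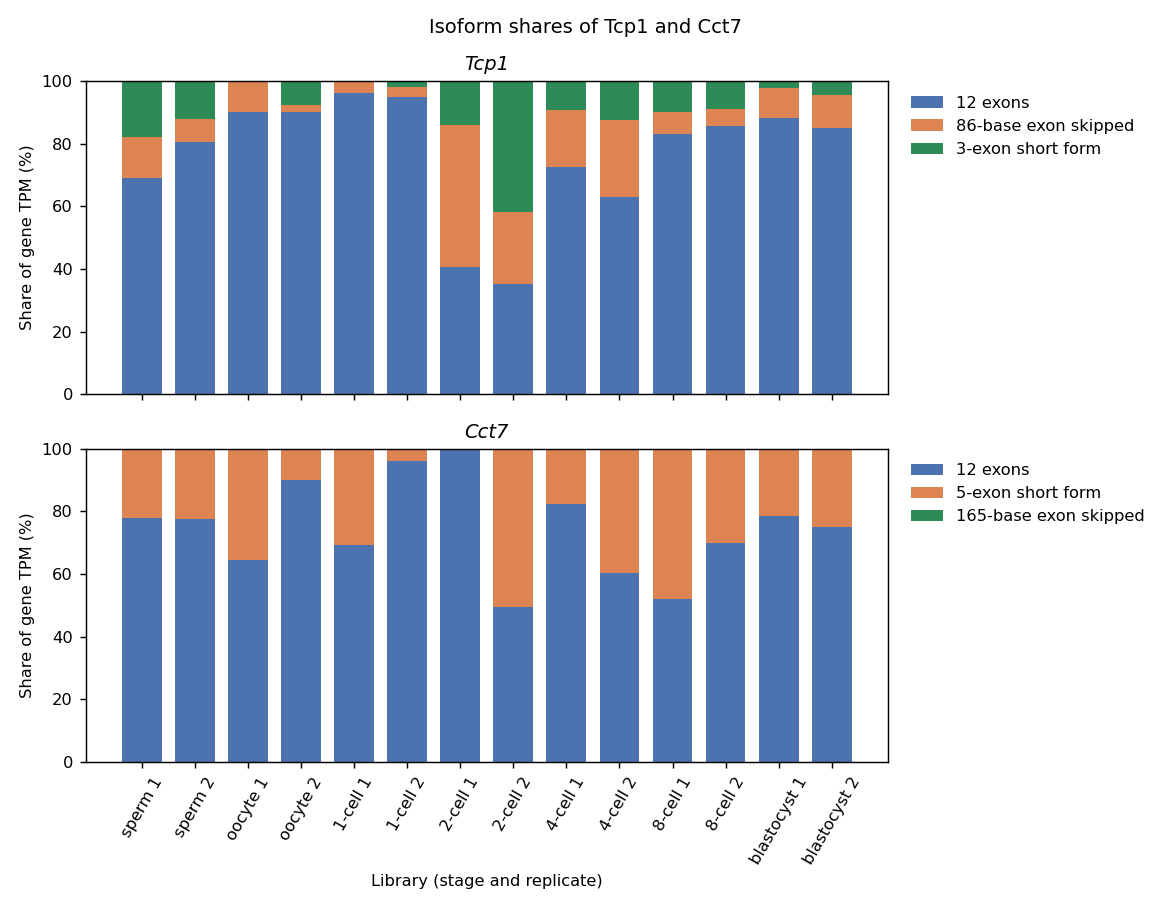
Share of each isoform in the summed TPM of Tcp1 (upper panel) and Cct7 (lower panel), as stacked bars from 0 to 100% for each short-read library by stage. The 12-exon isoform of Tcp1 takes 40.5% and 35.2% in 2-cell embryos, and the shares of the 2 main Cct7 isoforms differ between the libraries of a stage.

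Cct8 showed its exon-skipped isoform mostly at the same stage. TCONS_00008335 was at 0 and 0.231 TPM in 1-cell, 4.04 and 10.8 TPM in 2-cell and 3.15 and 1.38 TPM in 4-cell embryos, and under 1 TPM in every library of oocytes, 8-cell embryos and blastocysts. Its rise into the 2-cell stage was 2.79 ± 0.55 (limma over transcripts, adjusted p = 0.00322), and it then made up 1.29% and 9.08% of Cct8 TPM. The share of the main Cct8 isoform fell by 2.64 ± 0.76 on the log2 odds scale (adjusted p = 0.0433), from 99.5% in both 1-cell libraries to 98.1% and 90.1%. This fall was lost with weights by stage (adjusted p = 0.0811).

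Among member isoforms, 5 of the 19 tested rose from 1-cell to 2-cell embryos and none fell, against 22.9% of all transcripts that rose. They were the 2 shorter forms of Tcp1, the exon-skipped form of Cct8 and both forms of Cct6a. Of 17 member shares tested, 7 were called, against 15.8% of all shares. The 2 calls for Cct6a rest on gene totals under 1 TPM in 1-cell embryos and disappeared with a pseudocount of 0.1. When the 4 libraries of the 2 stages were fitted alone, neither an isoform nor a share of a member was called. From 4-cell to 8-cell embryos the Cct3 isoform without the 51-base exon fell by 2.87 ± 0.61, from 8.07 and 12.9 TPM to 0 and 1.37 TPM (adjusted p = 0.0239, limma). It was the 1 member isoform called there, against 2.44% of all transcripts that fell, and the call was lost with a pseudocount of 0.1 and in each fit without a 1-cell, 4-cell or 8-cell library. From oocytes to blastocysts 12 of 19 isoforms rose, against 26.7% of all transcripts. In that contrast 6 of 17 shares were called, against 29.7% of all shares. The share calls for Cct6a and Cct6b among them rest on gene totals under 1 TPM in oocytes. The remaining calls were for Cct3. TCONS_00012759 was called lower, but its share was 0 in both oocyte libraries and 1.02% and 0.45% in blastocysts, so its fall comes from the pseudocount. TCONS_00012760 was also called lower, and it made up 31.6% of Cct3 TPM in oocyte replicate 1 and 0 in replicate 2. TCONS_00015721 of Cct6a rose by 5.83 on the log2 odds scale. Its share was 100% in both oocyte libraries and 99.4% and 98.8% in blastocysts. The shares of the 2 Cct6a isoforms mirror each other.

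Other members had isoforms without a call between neighbouring stages. Cct7 had a 5-exon isoform, TCONS_00016863, that lacks 1028 of 1632 coding bases inside the gene. It made up 0 and 50.7% of Cct7 TPM in the 2-cell libraries, 17.8% and 39.4% in 4-cell embryos and 47.9% and 29.9% in 8-cell embryos. Its share thus differed as much between libraries of a stage as between stages. Cct2 had an isoform with another first exon, TCONS_00002385, at 9.76% and 45.4% of Cct2 TPM in 2-cell embryos and at 0 to 9.22% in the other libraries of oocytes and embryos. Both Cct6a isoforms shared introns with the annotated gene, which has no coding transcript in GENCODE vM21, and also overlapped the small nucleolar RNA gene Snora15 on that strand. TCONS_00015721 took at least 86.9% of Cct6a TPM in every library.

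In sperm 5 of 9 members were higher than in oocytes, against 36.3% of all genes. Cct4 was at 173.1 and 562.9 TPM in sperm, above every other member, and made up 38.0% and 58.2% of the summed TPM of the 8 subunits. It was 4.84 ± 1.05 higher than in oocytes (limma over 10738 genes with sperm included, adjusted p = 0.00104). Cct6a was at 16.0 and 42.3 TPM (4.25 ± 0.73, adjusted p = 0.000162). Tcp1 was at 93.0 and 149.2 TPM (3.18 ± 0.81, adjusted p = 0.00354), and this call was lost without oocyte replicate 1 (adjusted p = 0.0555). Cct5 was at 38.8 and 20.5 TPM (2.14 ± 0.79, adjusted p = 0.0312), and passed in 16 of 24 settings. It was lost after quantile normalization, with weights by stage, in the fit of 4 libraries and without sperm replicate 1, either oocyte replicate or either 4-cell replicate, where the adjusted p ran from 0.0522 to 0.150.

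Cct6b was highest in sperm, at 22.4 and 15.7 TPM, and did not overlap with any stage, since its highest embryo value was 14.1 TPM in a blastocyst library. Against oocytes, where it was listed at 0, its limma adjusted p was 9.86e-05. Cct6b had 2 isoforms, of 1871 and 1805 bases, that each hold all 1593 coding bases of the reference transcript. Whether the longer one adds coding bases was not tested. TCONS_00003756 was at 10.5 and 8.52 TPM in sperm, 0 in every library from oocyte to 8-cell embryo, and 1.26 and 0.320 TPM in blastocysts. TCONS_00003757 was at 11.8 and 7.18 TPM in sperm and was the isoform seen in embryos. Cct8 was at 21.2 and 156.6 TPM in sperm, overlapping the oocytes (−1.99 ± 0.99, adjusted p = 0.0983, limma), and was called lower without sperm replicate 2 (0.0136) or without oocyte replicate 1 (0.0480).

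The sperm libraries also carried the 4 leukocyte markers, at 77336 TPM in replicate 1 and 16010 TPM in replicate 2, and the part of those cells in the sperm levels of any member was not tested. Of 20 member isoforms tested 8 were higher in sperm than in oocytes, against 29.3% of all transcripts. In the same contrast 2 of 18 shares were called, against 31.3% of all shares. Both were shares of Cct6a, which mirror each other and rest on oocyte totals under 1 TPM. Over all genes 3893 were higher and 1866 lower in sperm, and 2857 and 2876 after quantile normalization.

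The long-read pools, with 7034 to 8831 transcripts each, listed transcripts of the members unevenly. Transcripts of all 9 members were in the sperm pool, of 5 in the oocyte pool, of 3 in the 1-cell pool and of 8 in each pool from the 2-cell stage to the blastocyst. In the oocyte and 1-cell pools only Cct7 and Cct8 had a transcript with all their coding bases. Cct2 and Cct5 were listed in the oocyte pool with 50.3% and 51.8% of their coding bases, and Cct3 with 9.60%. Tcp1, Cct4, Cct6a and Cct6b had no transcript in either pool. From the 2-cell stage on, every subunit with an annotated coding sequence other than Cct6b had a transcript with all of it. Cct6b was listed in the sperm pool alone.

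The 2 libraries of a stage did not differ in the same direction for all members. In 2-cell embryos replicate 1 exceeded replicate 2 by 3.01 for Cct4 and 1.54 for Tcp1 on the log2(TPM + 1) scale, while Cct2 was 1.54 lower in replicate 1. In blastocysts Cct3 and Cct2 were 2.01 and 1.96 higher in replicate 1, and Cct4 was 1.33 lower. Cct4 and Cct3 differed in opposite directions in 6 of 7 stages, all but the 8-cell stage. Over the 14 libraries, Pearson's r of log2 levels was 0.97 between Cct2 and Cct3, 0.94 between Cct4 and Tcp1 and 0.32 to 0.52 between Cct8 and the other 7 subunits. These values describe libraries that share their stage and are given without a test. Among 8848 other genes, those most like the mean of the 8 subunits over the 14 libraries were Gm10123, Rps15, Gm3724, Rps13 and Rpl27 (r from 0.984 to 0.982). Those most like Cct6b were Pgam2, Crip1, Ifitm2, Malat1 and Man2b1 (r from 0.963 to 0.938), and these points include the sperm libraries with the leukocyte markers.

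**Figure D5:**
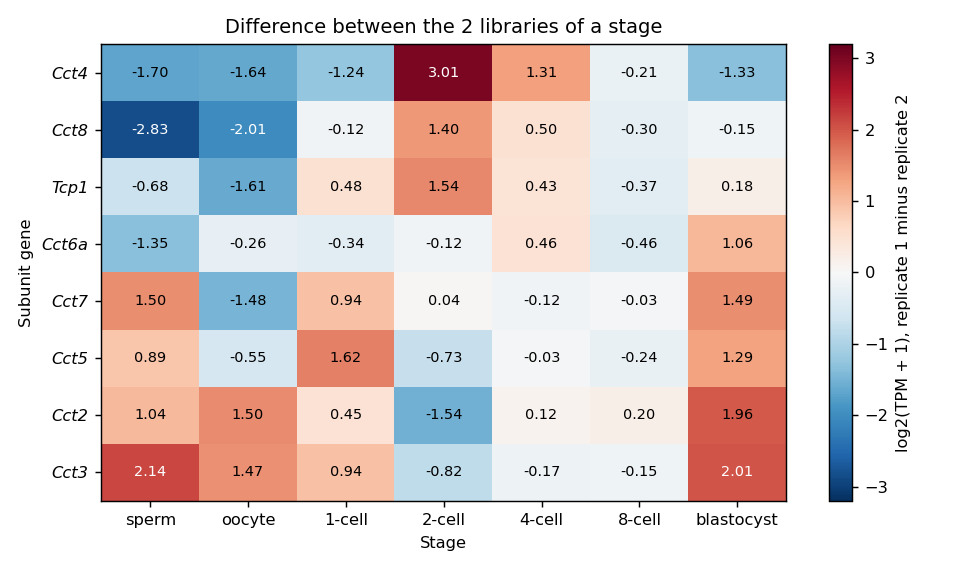
Difference between replicate 1 and replicate 2 in log2(TPM + 1) for the 8 subunits (rows) in the 7 stages (columns), as a colour scale centred on 0. Cct4 and Cct3 have opposite signs in every stage except the 8-cell embryo, and no value in the 8-cell column exceeds 0.46 in either direction.

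Genes that work with the ring were followed by fixed lists. The prefoldin list held 6 subunits, all measured. From 1-cell to 2-cell embryos 1 rose and 1 fell, and over all genes 26.1% rose and 6.20% fell. Pfdn6 went from 13.5 and 3.77 TPM to 93.6 and 320.0 TPM (4.39 ± 0.93, limma, adjusted p = 0.00295). Pfdn4 went from 679.1 and 408.5 TPM to 15.5 and 39.5 TPM (−4.35 ± 0.94, adjusted p = 0.00342), and had stood at 1266 and 2298 TPM in oocytes. Prefoldin RNAs were thus uneven in oocytes as well, with Pfdn4 far above Pfdn6 at 5.50 and 2.93 TPM. From oocytes to blastocysts 2 prefoldin genes rose and 1, Pfdn4, fell (−6.31 ± 0.94, adjusted p = 9.65e-05), while 18.0% of all genes fell.

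Of the 3 phosducin-like or thioredoxin-like cofactors tested, none was called from 1-cell to 2-cell embryos and 2 rose from oocytes to blastocysts, namely Txndc9 (3.00 ± 0.92, adjusted p = 0.0130, limma) and Pdcl (2.77 ± 1.06, adjusted p = 0.0394). Over all genes 35.4% rose, and after quantile normalization neither of the 2 was called. Pdcl2, known from male germ cells, was at 66.5 and 16.8 TPM in sperm and at 0.104 and 0 TPM in oocytes (5.05 ± 0.61, adjusted p = 6.14e-06). Of 5 tubulin cofactors 2 rose from 1-cell to 2-cell embryos, Tbcc (3.51 ± 1.14, adjusted p = 0.0302) and Tbcb (2.66 ± 0.81, adjusted p = 0.0212), and 2 rose from oocytes to blastocysts, against 26.1% and 35.4% of all genes. Both counts fell to 1 after quantile normalization.

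Of the 13 actin and tubulin genes, 2 rose and 2 fell from 1-cell to 2-cell embryos, and 5 rose and 1 fell from oocytes to blastocysts. Over all genes 26.1% rose and 6.20% fell in the first contrast and 35.4% and 18.0% in the second, so that the share of risers in the list was near that of all genes from oocytes to blastocysts. Actb, cytoplasmic beta-actin, went from 23.1 and 22.5 TPM in oocytes to 6529 and 2952 TPM in blastocysts (7.53 ± 0.83, limma, adjusted p = 1.09e-05). Tubb3, a beta-tubulin, went the other way, from 123.3 and 514.7 TPM to 0.583 and 0.569 TPM (−7.33 ± 0.97, adjusted p = 3.94e-05). Actg1, cytoplasmic gamma-actin, rose from 4-cell to 8-cell embryos, from 31.4 and 29.6 TPM to 209.3 and 318.2 TPM (3.04 ± 0.68, adjusted p = 0.0401). Of 10 other substrates 3 rose from 1-cell to 2-cell embryos, near the 26.1% of all genes, and none fell. Among them were Ccne1, which encodes cyclin E1 (5.75 ± 1.03, adjusted p = 0.000977), and Vhl, the tumour suppressor that recognises hydroxylated HIF (5.44 ± 0.90, adjusted p = 0.000639). With weights by stage, the counts from 1-cell to 2-cell embryos became 0 for the tubulin cofactors, 0 for actin and tubulin and 2 for the other substrates, and stayed at 1 higher and 1 lower for prefoldin. After quantile normalization they were 1 higher and 2 lower for prefoldin, 1 and 2 for actin and tubulin, and 3 and 1 for the other substrates.

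Promoter letters were searched in 250 bases before the RefSeq start sites (GRCm38.p6). These were matched for 8 of the 9 genes, with 10 start sites. Annotated exons on either strand covered all 250 bases for Tcp1 and Cct6a, 227 for Cct6b and 245 at Cct5 start site 31601846. The GC box GGGCGG, on either strand, was found at 8 of 10 member start sites and in 32.75% of 32841 promoters. CCAAT was found at 4 of 10 against 33.86%, and CCGGAAG, the core bound by ETS factors, at 3 of 10 against 6.909%. TTCNNGAA was found at 1 of 10 against 7.168%, and GAANNTTC, the other arrangement of a pair of heat shock element units, at 1 of 10 against 6.696%. The E-box CACGTG was found at 0 of 10 (6.023% of all promoters), and so was the TATA box TATAAA (12.37%). Motif matches are descriptions of letters in these windows.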

How the data were processed

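RNA from pooled gametes or embryos had been amplified as full-length cDNA and sequenced as short reads and as long reads. The authors merged the long-read transcripts of all stages into 1 annotation on mm10 and quantified the short reads on it, and the deposited values are TPM per transcript. Their processing notes name GSNAP, Cufflinks, STAR and Salmon. Merged transcripts were assigned to GENCODE vM21 genes by exon overlap on the same strand, and TPM was summed per gene. Genes of at least 1 TPM in 2 libraries were tested with limma 3.58.1 in R 4.3.3 on log2(TPM + 1). The 12 oocyte and embryo libraries shared 1 fit and sperm was added for the sperm contrast. Isoforms and log2 odds of isoform shares (pseudocount 1) were fitted alike. The call threshold was an adjusted p of 0.05. The fits were tested on simulated data. TPM keeps no depth, so no counting interval is given. Every member was described, and list genes were named by the largest called changes of each list. The members and lists were chosen with earlier results of these data known. Alternatives were a pseudocount of 0.1, other filters, quantile normalization, a spread weighted by stage, a fit of 4 libraries, annotated transcripts only, transcripts seen in the long reads of the same stage, transcripts of 1 gene only, a replicate block and leaving out each library.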

Additional observations from a re-analysis of the deposited data

How the results depend on the processing

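None of the called differences of members changed direction under an alternative that gave a value. Uncalled ones did so with quantile normalization and with own-stage transcripts. A gene without a long-read transcript in a stage counts as 0 in the latter, so a call can follow from absence in 1 pool alone. There, from oocytes to 1-cell embryos, Cct3 went from 1.23 to −4.96 (limma, adjusted p = 0.00156) and Cct5 from 1.61 to −2.86 (adjusted p = 0.00281). Both had no transcript in the 1-cell pool. Cct2, with partial transcripts alone in both pools, was at 2.58 (limma, adjusted p = 0.0380). From 1-cell to 2-cell embryos Cct2 went from 0.82 to −0.59. Of the log2 differences of members that were called, or of Cct8 from oocytes to blastocysts and in sperm, 205 under a left-out library and 157 under another setting kept their side of the threshold, 8 and 6 lost it, and 3 gained it with a library left out. Counts of called members moved as follows. From oocytes to 1-cell embryos these 3 members passed with own-stage transcripts, 1 higher and 2 lower. From 1-cell to 2-cell embryos the count was 1 in the fit of 4 libraries and with the spread weighted by stage, 5 with own-stage transcripts, 3 with a pseudocount of 0.1 (Cct6b added), 1 without transcripts of several genes and 1 with annotated transcripts only. Cct6a has no value in the last 2 settings, since its transcripts overlap a second gene and match no annotated structure. Leaving out a library gave 1 to 3. From 2-cell to 4-cell embryos 3 members passed after quantile normalization, 2 with own-stage transcripts and 0 to 2 with a library left out. From 4-cell to 8-cell embryos 1 (Cct7) passed in the fit of 4 libraries. For isoforms, the fit of 4 libraries gave 0 calls into the 2-cell stage, 2 into the 8-cell stage and 3 for sperm. Quantile normalization gave 4 into the 4-cell stage, where leaving out a library gave 0 to 1. Into the 8-cell stage the count was 0 with a pseudocount of 0.1, 4 with the spread weighted by stage and 0 to 2 with a library left out. For shares into the 2-cell stage, the fit of 4 libraries gave 0, the weighted spread 1 and leaving out a library 1 to 9. Shares gave 0 to 2 into the 4-cell stage with a library left out and 5 into the 8-cell stage with the weighted spread. From oocytes to blastocysts they gave 3 with a pseudocount of 0.1 and 2 to 7 with a library left out, and for sperm 2 to 4 with a library left out. The mean spread among subunits in 1-cell embryos went from 2.12 to 1.48 without Cct6a, an alternative chosen after seeing the data. In 8-cell embryos it went from 0.77 to 0.82 without Cct6a and to 0.83 with own-stage transcripts. Own-stage transcripts gave no spread for oocytes and 1-cell embryos, and annotated transcripts gave none at any stage, because subunits lack a transcript there. The cause of these moves was not tested.

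The differences between replicates correlated between stages from −0.55 to 0.48. Such correlations cannot decide whether libraries with the same replicate number share a batch, and the main fit treated them as unpaired. The 8-cell numbers differ between sample titles and deposited file labels, and the titles were used. The pairs without the 8-cell stage alone ran from −0.55 to 0.36, and a block with the other 8-cell numbers was not fitted. With the replicate number as a block, 2 members were called from 1-cell to 2-cell embryos, 8 from oocytes to blastocysts and 5 for sperm, and no count of members moved. The block moved shares from 7 to 6 from 1-cell to 2-cell embryos and isoforms from 8 to 7 for sperm. With 2 libraries a stage and no depth in TPM, a missed threshold does not show that levels were equal.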

Other observations

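Chaperonins other than CCT were followed by lists of the same kind. Of 4 chaperonin-like genes, Mkks, which encodes a protein needed to assemble the BBSome of cilia, had a merged transcript, and Bbs10, Bbs12 and Cct8l1 were assigned none. Mkks was at 4.41 and 3.76 TPM in oocytes, 26.2 and 9.46 TPM in 1-cell embryos, 85.1 and 54.6 TPM in 2-cell embryos and 98.4 and 77.0 TPM in blastocysts. It rose by 2.03 ± 0.68 from 1-cell to 2-cell embryos (limma, adjusted p = 0.0343) and by 4.12 ± 0.68 from oocytes to blastocysts (adjusted p = 0.000219). The first of these calls was lost after quantile normalization and with the spread weighted by stage.

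Of the 2 genes of the mitochondrial chaperonin, Hspd1, which encodes its ring subunit HSP60, went from 29.0 and 50.7 TPM in oocytes to 379.6 and 143.6 TPM in blastocysts (2.57 ± 0.72, limma, adjusted p = 0.00783). Neither gene was called from 1-cell to 2-cell embryos or between sperm and oocytes.

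In sperm against oocytes, 2 of 6 prefoldin genes were lower, Pfdn4 (−8.20 ± 1.00, limma, adjusted p = 6.47e-06) and Pfdn2 (−2.09 ± 0.82, adjusted p = 0.0410), and none was higher. Of 5 tubulin cofactors 3 were higher, of 13 actin and tubulin genes 3 were higher and 2 lower, and of 10 other substrates 3 were higher and 2 lower. Over all genes 36.3% were higher and 17.4% lower. The 3 tubulin cofactors became 1 after quantile normalization and with the spread weighted by stage. The other substrates became 1 higher and 2 lower after quantile normalization and 2 and 2 with the weighted spread. With that spread 1 of the prefoldin genes and 1 of the actin and tubulin genes stayed lower. The leukocyte markers of the sperm libraries stand beside these counts as well, and their part was not tested.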
